A study of Mus musculus with 2 samples.

Results

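The genes described here are the Snail (Snai1, Snai2, Snai3), Zeb (Zeb1, Zeb2) and Twist (Twist1, Twist2) transcription factors and the E proteins (Tcf3, Tcf4, Tcf12), chosen by gene symbol as families that regulate mesenchymal cell states. They are 10 of the 43346 Ensembl genes measured, and hold 81 of the 103639 transcripts. RNA over 200 nt was sequenced from the facial prominences of B6NCrl mouse embryos at embryonic day 10.5, with spike-in RNA added to each library. The only group held 2 biological replicates, each a pool of male and female embryos, replicate 1 from 69 embryos and replicate 2 from 51. The labels named no treatment, mutation or second tissue, so no condition could be compared, and the values describe levels, transcript forms and the difference between the 2 pools.

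Snail and Zeb proteins are zinc finger repressors that bind E-box motifs in the regulatory DNA of epithelial genes, the cadherin gene Cdh1 being the best known. Twist proteins are basic helix-loop-helix (bHLH) factors that act in pairs, often with an E protein, and E proteins are the widely expressed bHLH partners of many tissue-restricted factors. In the embryonic face these families are known from the neural crest and the mesenchyme it forms, and in humans heterozygous loss of TWIST1 or of TCF12 can cause premature fusion of the skull sutures. Tcf3 and Tcf4 here are the genes of E2A and E2-2 and are distinct from Tcf7l1 and Tcf7l2, for which the same short names have been used.

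The replicate 1 library held 40059176 expected counts of genes and the replicate 2 library 39531700, and spike-in RNA took 3.46% and 3.94% of all counts. Levels are given as TPM, a relative abundance per transcript length that allows genes to be set side by side. A gene was called detected where both pools reached 1 TPM. All 7 mesenchyme markers were detected, with a summed level of 1266 TPM in replicate 1 and 1246 in replicate 2. Surface ectoderm (6 of 6 markers), neurons (5 of 5), endothelium (5 of 5) and erythroid cells (5 of 5) were detected as well, so the libraries are of mixed tissue. In such bulk RNA, fewer cells that express a gene and less of its RNA per cell cannot be told apart. Of the 2 liver markers, 0 were detected in both pools. Alb was at 0 in both, whereas Afp had 0.11 TPM in replicate 1 and 1.09 in replicate 2.

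Of the 10 genes, 9 were detected. Of all 21474 protein coding genes, 58.2% were detected, with a median level of 20.1 TPM among those detected. The E proteins were the most abundant, with 3 genes summing to 433 ± 15.2 TPM (SD, n = 2 pools, as for every mean below). The Snail genes summed to 115 ± 1.48 TPM, the Twist genes to 73.2 ± 5.38 and the Zeb genes to 43.3 ± 3.27. In each pool the E proteins together stood above Twist, 5.77-fold in replicate 1 and 6.09-fold in replicate 2.

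**Figure D1:**
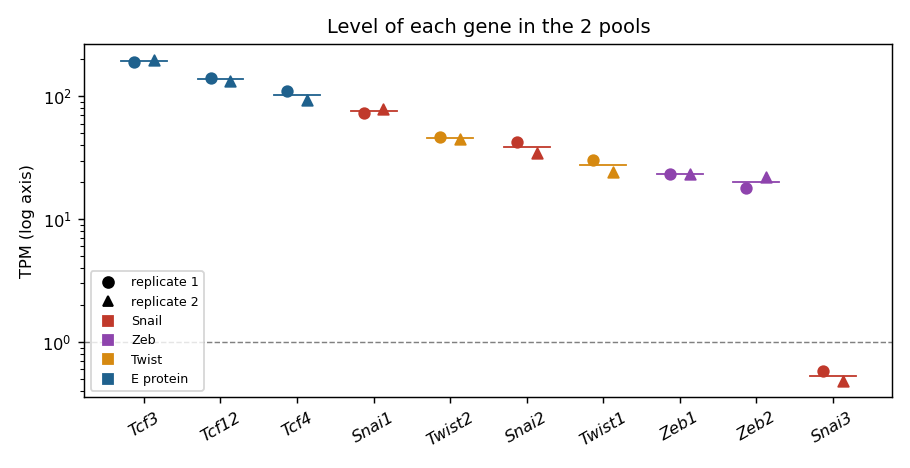
Level of each gene in TPM on a log axis, genes ordered by mean and coloured by family, with circles for replicate 1, triangles for replicate 2 and a bar at the mean. The dashed line marks the detection threshold of 1 TPM. Only Snai3 lies under it, at 0.58 TPM in replicate 1 and 0.48 in replicate 2, and the 3 E proteins lead.

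Snai1 was the most abundant Snail gene. It encodes a repressor needed for mesoderm formation in the mouse (ENSMUSG00000042821, GRCm38 chromosome 2, 167538195 to 167542814, plus strand), and its level was 72.9 TPM in replicate 1 and 78.4 in replicate 2, a mean of 75.6 ± 3.89 TPM. Snai2, also called Slug and a classical marker of the neural crest in the chick (ENSMUSG00000022676, chromosome 16, 14705852 to 14709385, plus strand), had 42.2 TPM in replicate 1 and 34.7 in replicate 2, a mean of 38.5 ± 5.30 TPM. Snai1 was the higher gene in both pools, by 0.98 in log2(TPM + 0.1) on average, with a 95% interval of 0.81 to 1.15. That interval uses a replicate SD averaged over 200 genes of like level (the pooled spread) and leaves out errors of TPM that are particular to a gene.

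Snai3 was the 1 gene that was not detected. The gene (ENSMUSG00000006587, chromosome 8, 122454208 to 122460733, minus strand) encodes the third Snail repressor. Its expected counts were 23 in replicate 1 and 19 in replicate 2, and its mean level was 0.53 ± 0.0707 TPM. The authors' deposited interval ran from 0.367 to 0.838 TPM in replicate 1 and from 0.291 to 0.723 in replicate 2. A count of 3 would have stood for 0.0757 TPM in replicate 1 and 0.0758 in replicate 2, so the level lay above what a count of 0 allows. This limit covers counting error only. Snai3 lies within the span of Gm20388, a protein coding model on the other strand, to which 443 expected counts were assigned in replicate 1 and 154 in replicate 2. Whether strand was used in counting is not given in the sources used here. For Twist2, Zeb1 and Zeb2, the unrounded count and that of an opposite-strand gene add to a whole number in each pool. Reads thus appear to have been divided between opposite strands in those pairs. The Snai3 counts were whole numbers with a posterior SD of 0 in both pools, so they show no reads divided with Gm20388.

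The start of the coding sequence, which encodes the SNAG motif through which Snail proteins recruit corepressors, shows how far the 2 detected Snail genes are alike. The first 60 coding bases are given from GENCODE M21 transcripts on GRCm38, with capitals in Snai2 where the base differs from Snai1 at the same position. They lie at chr2:167538290-167538349 and chr16:14705974-14706033, both on the plus strand.
Snai1: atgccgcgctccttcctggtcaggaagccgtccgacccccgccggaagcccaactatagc
Snai2: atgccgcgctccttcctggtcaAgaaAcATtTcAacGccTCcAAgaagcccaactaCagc
Over these bases Snai2 matched Snai1 at 48 of 60 positions. Of the summed Snail TPM, 66.0% ± 4.25 came from Snai1, 33.5% ± 4.19 from Snai2 and 0.462% ± 0.0557 from Snai3.

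The 2 Zeb genes were the lowest of the 9 detected. Zeb1 (ENSMUSG00000024238, chromosome 18, 5591860 to 5775467, plus strand), a repressor with a homeodomain between 2 clusters of zinc fingers, had 23.2 TPM in replicate 1 and 23.5 in replicate 2, a mean of 23.3 ± 0.184 TPM. Zeb2, its relative and a regulator of neural crest formation, had 17.8 TPM in replicate 1 and 22.2 in replicate 2, a mean of 20.0 ± 3.09 TPM (ENSMUSG00000026872, chromosome 2, 44983632 to 45117395, minus strand). Zeb1 was higher by 0.23 on average in log2(TPM + 0.1), with an interval of 0.02 to 0.43. The difference was 0.38 in replicate 1 and 0.08 in replicate 2, and with replicate 2 alone the interval (-0.21 to 0.37) held 0. Zeb2 differed more between the pools than most genes of like count, so the pooled spread may be too small for it. Zeb1 took 54.0% ± 3.65 of the summed Zeb TPM, but 49.4% of the expected counts of the 2 genes, since counts are not per length and the mean effective length of Zeb2 was the greater.

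Most Zeb1 RNA was assigned to a protein coding form and a smaller part to transcripts without a coding sequence. Zeb1-201, the 8-exon coding transcript, took 52.6% of the gene in replicate 1 and 52.2% in replicate 2. Zeb1-204, annotated as a retained intron of 2 exons, took 19.0% and 19.3%. The processed transcripts Zeb1-207 (8.20% and 12.5%) and Zeb1-203 (7.51% and 6.75%) came next. The gene Gm10125, which overlaps the start of Zeb1 on the other strand, had 29.16 expected counts in replicate 1 and 29.35 in replicate 2, and the other 2 genes annotated over Zeb1 had 0. Zeb1 had 2329.84 and 2362.65. The counts of Zeb1 and Gm10125 add to a whole number in each pool, so reads appear to have been divided between them.

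Zeb2 transcripts fell into forms that begin at different first exons. Zeb2-201, the leading coding transcript, starts in a first exon of 168 bases (chromosome 2, 45110348 to 45110515) and had 8.13 TPM in replicate 1 and 11.1 in replicate 2. A further 6 transcripts have a first exon upstream of it that ends at the same splice site as that of Zeb2-209 (423 bases, 45112823 to 45113245), and summed to 8.01 TPM in replicate 1 and 7.02 in replicate 2. As shares of the gene, the leading form took 45.6% and 50.1%, and the upstream forms 44.9% and 31.6%. Replicate 2 was thus the higher pool for the leading form and the lower one for the sum of the upstream forms. Within that sum, Zeb2-213 (2.14 TPM in replicate 1 and 1.59 in replicate 2), Zeb2-202 (2.06 and 1.28) and Zeb2-205 (0.42 and 0) were lower in replicate 2. Zeb2-209 (2.50 and 2.97), Zeb2-204 (0.70 and 0.95) and Zeb2-203 (0.19 and 0.23) were higher there. The 6 upstream forms included the retained intron transcript Zeb2-209 (14.0% and 13.4%) and the coding transcripts Zeb2-213 (12% and 7.15%) and Zeb2-202 (11.5% and 5.77%). The 7 transcripts with other first exons took 9.48% and 18.3%, the coding form Zeb2-214 among them with 6.82% and 8.65%. Of these, Zeb2-212 and Zeb2-206 start further upstream still. Both had 0 TPM in replicate 1, and 0.76 and 0.34 TPM in replicate 2, so the lower level in replicate 2 does not hold for every upstream start. The antisense gene Zeb2os, which overlaps this end of Zeb2, had 5.82 expected counts in replicate 1 and 11.45 in replicate 2, against 2161.18 and 2670.55 for Zeb2. The counts of both genes add to a whole number in each pool, so reads appear to have been divided between them.

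Twist2 stood above Twist1 in both pools. Twist2, or Dermo1, is a bHLH factor of dermal and skeletal mesenchyme (ENSMUSG00000007805, chromosome 1, 91801461 to 91848028, plus strand). Its level was 46.7 TPM in replicate 1 and 44.9 in replicate 2, a mean of 45.8 ± 1.26 TPM. Twist1, which the mouse needs for cranial neural crest and neural tube closure (ENSMUSG00000035799, chromosome 12, 33957671 to 33959829, plus strand), had 30.3 TPM in replicate 1 and 24.4 in replicate 2, a mean of 27.4 ± 4.12 TPM. The difference of 0.75 in log2(TPM + 0.1), with an interval of 0.54 to 0.96, was beyond the pooled spread. Twist2 took 62.7% ± 2.89 of the summed Twist TPM.

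The 2 Twist genes are near copies towards the 3′ end of the coding sequence. The last 240 coding bases before the stop codon are given from GENCODE M21 transcripts on GRCm38, at chr12:33958356-33958595 for Twist1 and chr1:91801867-91802106 for Twist2, both on the plus strand, with capitals where the genes differ.
Twist1: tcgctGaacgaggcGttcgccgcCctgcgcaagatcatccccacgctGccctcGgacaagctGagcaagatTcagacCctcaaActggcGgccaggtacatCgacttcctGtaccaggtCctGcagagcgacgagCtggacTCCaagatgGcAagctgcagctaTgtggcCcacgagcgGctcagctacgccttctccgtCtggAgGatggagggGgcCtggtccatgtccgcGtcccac
Twist2: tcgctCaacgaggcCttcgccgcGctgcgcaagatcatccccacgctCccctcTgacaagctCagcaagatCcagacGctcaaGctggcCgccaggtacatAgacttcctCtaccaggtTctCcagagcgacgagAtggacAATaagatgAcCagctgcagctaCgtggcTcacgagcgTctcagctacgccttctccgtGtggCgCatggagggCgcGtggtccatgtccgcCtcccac
The 2 sequences matched at 211 of 240 positions (87.9%). For Twist1 the deposited counts were whole numbers, 1217 in replicate 1 and 977 in replicate 2, with a posterior SD of 0 in both pools. They thus show no reads divided with Twist2. Twist2 had 1581 and 1487 with a posterior SD of the count of 6.35 and 7.30. Twist2-201, the spliced form, took 96.0% of Twist2 in replicate 1 and 97.9% in replicate 2. Gm29100, an antisense gene over the start of Twist2, had expected counts that were not whole either, 145.54 in replicate 1 and 214.15 in replicate 2. With the unrounded counts of Twist2, 1581.46 and 1486.85, they add to a whole number in each pool. Reads thus appear to have been divided between Twist2 and Gm29100. Gm29101, within the intron of Twist2 on the same strand, had 104 and 64.

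Tcf3 was the most abundant of the 10 genes. It encodes the E2A proteins (ENSMUSG00000020167, chromosome 10, 80409514 to 80433647, minus strand) and had 191 TPM in replicate 1 and 197 in replicate 2, a mean of 194 ± 4.33 TPM, at percentile 93.6 of the detected protein coding genes.

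Tcf3 makes its 2 best known products, E12 and E47, by using 1 of 2 neighbouring exons that each encode the DNA-binding bHLH domain. The E47 exon (227 bases, chr10:80410398-80410624, minus strand) and the E12 exon (236 bases, chr10:80412827-80413062, minus strand) were named from the domain they encode and are shown from GENCODE M21 transcripts on GRCm38. They are aligned from their 3′ ends, with capitals where they differ. The first 9 bases of the E12 exon have no counterpart and are in lower case.
Tcf3 E47 exon: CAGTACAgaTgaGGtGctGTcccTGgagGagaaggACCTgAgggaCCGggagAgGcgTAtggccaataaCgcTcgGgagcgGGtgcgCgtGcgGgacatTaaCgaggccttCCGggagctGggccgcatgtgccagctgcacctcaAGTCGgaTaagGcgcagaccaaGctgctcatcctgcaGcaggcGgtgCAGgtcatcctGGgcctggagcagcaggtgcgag
Tcf3 E12 exon: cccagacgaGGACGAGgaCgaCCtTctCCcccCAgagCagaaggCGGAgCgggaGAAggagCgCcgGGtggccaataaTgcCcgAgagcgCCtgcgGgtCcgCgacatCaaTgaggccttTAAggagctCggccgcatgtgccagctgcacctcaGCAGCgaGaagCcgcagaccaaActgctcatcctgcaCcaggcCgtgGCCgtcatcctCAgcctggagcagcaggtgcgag
The exons matched at 170 of 227 aligned positions (74.9%). Set against the bHLH exons of the other E proteins in the same way, the E12 exon matched that of Tcf4 at 187 of 230 positions (81.3%) and that of Tcf12 at 169 of 233 (72.5%), and the E47 exon matched them at 162 of 227 (71.4%) and 160 of 227 (70.5%).

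The E47 exon was the more used of the pair. The 7 transcripts with it summed to 113 TPM in replicate 1 and 110 in replicate 2, and the 4 with the E12 exon to 60.4 and 64.3 TPM. Of the TPM classed to either exon, E47 took 64.1% ± 1.44 and E12 35.9% ± 1.44, with no overlap between the classes in the 2 pools. Tcf3-209, the leading E47 form, took 27.5% of the gene in replicate 1 and 19.5% in replicate 2, and Tcf3-208, also with E47, 13.5% and 17.2%. Among the E12 forms, Tcf3-206 took 19.7% and 14.1%, and Tcf3-210 took 11.8% and 18.5%. The share of the bHLH exon differed by 2.03 percentage points between the pools, less than that of any of these 4 transcripts. The E47 form Tcf3-202 had 13.3% and 13.4%, and the noncoding 4-exon Tcf3-212 had 8.05% and 10.3%. Tcf3-212 (15.4 TPM in replicate 1 and 20.4 in replicate 2) was classed with neither exon. The E12 class asked for the exact bounds of the exon, whereas the E47 class took any overlap. The span of Tcf3-212 (80412627 to 80415487) covers the E12 exon, so the E12 share may be too low.

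Tcf12, which encodes HEB (ENSMUSG00000032228, chromosome 9, 71842688 to 72111871, minus strand), had 142 TPM in replicate 1 and 133 in replicate 2, a mean of 137 ± 6.46 TPM. Its RNA was assigned to both long and short forms. The long forms start upstream, and the short forms start at a first exon of 467 bases (chromosome 9, 71895930 to 71896396) that lies 215425 bases downstream of the upstream start, inside the gene. The 4 transcripts with the internal start summed to 77.0 TPM in replicate 1 and 70.2 in replicate 2, or 53.6% ± 0.972 of the gene. The 11 with the upstream start summed to 56.7 and 50.7 TPM, or 39.1% ± 1.27, and the rest belonged to 6 transcripts with other starts. The leading transcript in both pools was the short Tcf12-207, at 32.5% in replicate 1 and 33.8% in replicate 2, with 1608 coding bases. The leading long form, Tcf12-201, took 17.9% and 20.0% and has 2046 coding bases. Other forms of at least 5% were the short Tcf12-215 (16.6% and 14.4%), the long Tcf12-202 (5.86% and 5.58%) and Tcf12-220 (9.55% and 5.45%). Tcf12-220 starts upstream and is annotated for nonsense-mediated decay. The upstream class also holds the retained intron transcript Tcf12-212 (3.22% and 3.21%), and the internal class Tcf12-217 (4.47% and 3.64%), a retained intron as well. The shares of the 2 starts are thus not shares of coding RNA.

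The short and long forms begin with different coding exons, given here from GENCODE M21 transcripts on GRCm38 with the start codon in capitals. The short form's exon lies at chr9:71895930-71895998 and the long form's at chr9:72110738-72110812, both on the minus strand.
Tcf12 short form: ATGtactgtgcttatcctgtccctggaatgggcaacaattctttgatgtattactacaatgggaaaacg
Tcf12 long form: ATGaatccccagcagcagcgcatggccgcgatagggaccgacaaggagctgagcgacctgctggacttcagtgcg
Tcf4 has a short form of the same build. Its first 69 coding bases matched those of Tcf12 at 55 of 69 positions (79.7%), whereas the first 72 coding bases of the long forms matched at 26 of 72 (36.1%).

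Tcf12 further has a cassette exon of 72 bases (chromosome 9, 71868999 to 71869070). Transcripts that include it summed to 54.4 TPM in replicate 1 and 52.4 in replicate 2, and those that skip it to 64.7 and 54.9 TPM. Inclusion was 47.3% ± 2.24 of the TPM that could be classed, 45.7% in replicate 1 and 48.9% in replicate 2. The skipping transcripts include Tcf12-220, annotated for nonsense-mediated decay, with 13.5 TPM in replicate 1 and 7.23 in replicate 2. Inclusion among the other transcripts is therefore higher than these shares. The annotation places 11 genes over Tcf12, of which 6 were detected, all of them on its own strand and of unproven status. The highest were Gm38111 (245 expected counts in replicate 1 and 305 in replicate 2) and Gm37137 (191 and 177), against 13730 and 12495 for Tcf12.

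Tcf4, which encodes E2-2 and is the gene of Pitt-Hopkins syndrome in humans (ENSMUSG00000053477, chromosome 18, 69343356 to 69689079, plus strand), had 111 TPM in replicate 1 and 92.5 in replicate 2, a mean of 102 ± 13.1 TPM. Its long forms outweighed the short ones in both pools. The short form starts at an exon (chromosome 18, 69592988 to 69593584) 246628 bases downstream of the upstream start. Its transcripts had 44.9 TPM in replicate 1 and 31.3 in replicate 2, or 37.1% ± 4.62 of the gene. The 7 upstream transcripts had 60.1 and 54.1 TPM, or 56.3% ± 3.11. The leading single transcript differed between the pools. It was the short Tcf4-204 in replicate 1, with 40.4% against 32.1% for the long Tcf4-205, and Tcf4-205 in replicate 2, with 36.9% against 33.9%. The long forms Tcf4-202 (8.60% and 7.0%) and Tcf4-207 (4.60% and 5.99%) and the shortened Tcf4-210 (7.21% and 6.96%) followed. Only 4 of the 15 Tcf4 transcripts have the same length in the later annotation used for positions as in the deposited files. The same holds for 21 of 21 of Tcf12 and 14 of 14 of Tcf3, but for 8 of 14 of Zeb2. The upstream form Zeb2-202 has 9113 bases in the deposited files and 5624 in the later annotation, so the first exon classes of Zeb2 share this limit. The later annotation also holds 62 transcripts of Tcf4 and 29 of Zeb2, against the 15 and 14 in the deposited files. Forms absent from those files could not be given a share.

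The order Tcf3, Tcf12, Tcf4 was the same in both pools, and each step was beyond the pooled spread. Tcf3 was over Tcf12 by 0.50 in log2(TPM + 0.1), with an interval of 0.35 to 0.65, and Tcf12 was over Tcf4 by 0.44, with an interval of 0.30 to 0.57. Of the summed E protein TPM, Tcf3 took 44.9% ± 2.58, Tcf12 31.7% ± 0.379 and Tcf4 23.5% ± 2.20. Of their expected counts, which are not per length, Tcf3 took 39.6% and Tcf12 39.4%.

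**Figure D2:**
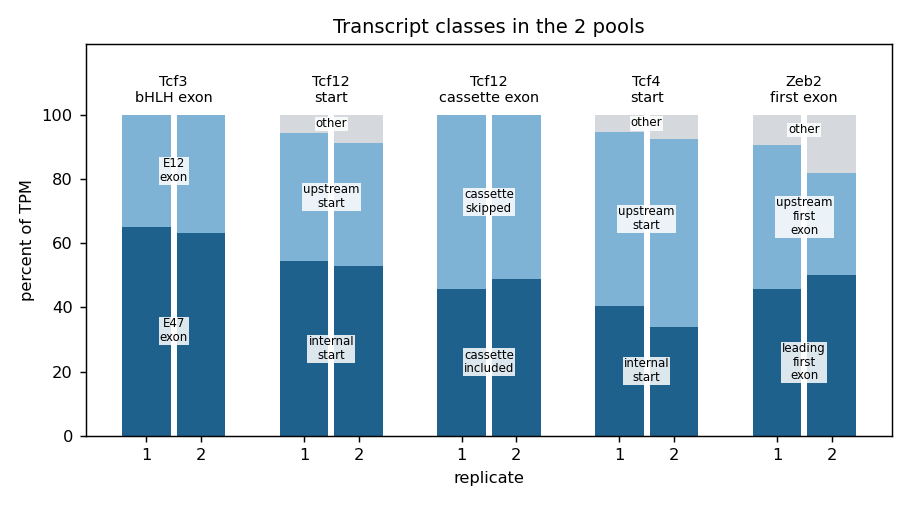
Share of each transcript class in both replicates. For the starts of Tcf12 and Tcf4 and the first exons of Zeb2 it is a percent of the gene's TPM, and for the Tcf3 bHLH exon and the Tcf12 cassette exon a percent of the TPM of transcripts that could be classed. For Tcf3 the E47 exon takes 65.1% in replicate 1 and 63.1% in replicate 2, for Tcf12 the internal start takes 54.3% and 52.9%, and for Tcf4 the internal start takes 40.4% and 33.9%.

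Of the 6 genes with at least 2 transcripts and a mean of at least 5 TPM, 5 had the same leading transcript in both pools, Tcf4 being the exception. The same held for 93.8% of all 7738 such genes. The other 4 genes have 1 annotated transcript each.

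Across the families, the order by mean TPM ran Tcf3, Tcf12, Tcf4, Snai1, Twist2, Snai2, Twist1, Zeb1, Zeb2 and Snai3. Of the 9 neighbouring pairs in this order, 8 differed by more than the pooled spread, as did 44 of all 45 pairs. The share of gene pairs in general that pass this rule was not computed, so these counts show nothing particular to these genes. The pair that did not pass was Twist1 over Zeb1, with a difference of 0.22 in log2(TPM + 0.1) and an interval of -0.0044 to 0.45, so their order is not settled. The difference was 0.38 in replicate 1, whose interval alone left out 0 (0.06 to 0.70), and 0.06 in replicate 2. Twist2 over Snai2 was close as well, at 0.26 with an interval of 0.08 to 0.44. In replicate 1 alone it was 0.15, with an interval that held 0 (-0.11 to 0.40).

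**Figure D3:**
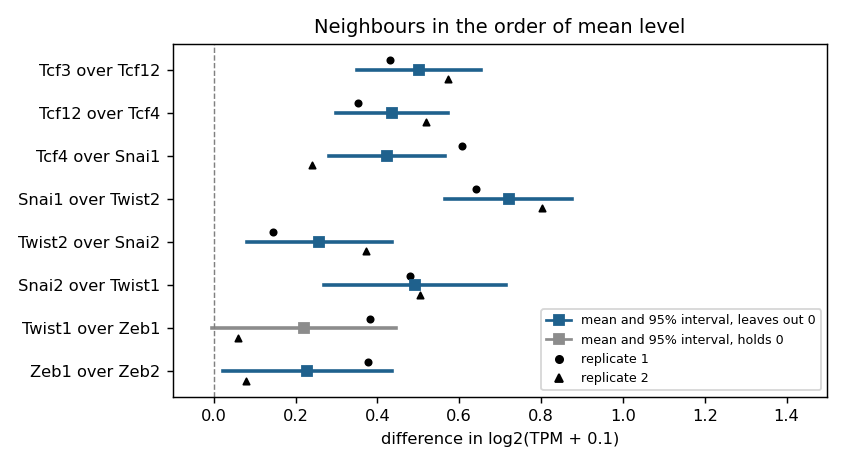
Difference in log2(TPM + 0.1) between neighbours in the order of mean level, with the mean and its 95% interval as a square and bar and the value in each replicate as a circle (replicate 1) or triangle (replicate 2). The pair of Zeb2 and Snai3, 4.99 apart, is left out for scale. Only Twist1 over Zeb1, in grey, has an interval that holds 0.

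Zeb2 was lower in replicate 1, and Twist1, Snai2 and Tcf4 were higher, each by less than 2-fold. Ratios of replicate 1 over replicate 2 were taken from expected counts after scaling the libraries with edgeR's TMM factors. None of the 9 genes that averaged 50 counts or more was 2-fold apart, nor were most others, since only 1.23% of all 14118 such genes were. Their median log2 ratio was 0.05, against -0.0065 over all those genes, and 5 of the 9 were higher in replicate 1, or 8 of the 9 with spike-in scaling, which moves the median of all genes to 0.21. All pool ratios here and below are on the TMM scale. Zeb2 had the largest ratio among them, at a log2 of -0.34, or 0.788-fold, with 2161 expected counts in replicate 1 and 2671 in replicate 2. Twist1 had a log2 ratio of 0.28, Snai2 of 0.25 and Tcf4 of 0.24. Set among the 200 genes nearest in mean expected count, the size of the ratio stood at percentile 98 for Zeb2, 96.5 for Tcf4, 96 for Snai2, 92 for Twist1 and 89.5 for Snai1. For Tcf12 it stood at percentile 82, and for Zeb1, Tcf3 and Twist2 at 50, 45.5 and 37. For the genes at high percentiles the pooled spread may be too small, and the intervals of level differences above too narrow. The 95% Clopper-Pearson interval of the ratio, which covers counting error, left out 1 for 7 of the 9 genes and for 39.4% of all those tested. The intervals of Zeb1 (-0.06) and Twist2 (0.05) held 1.

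**Figure D4:**
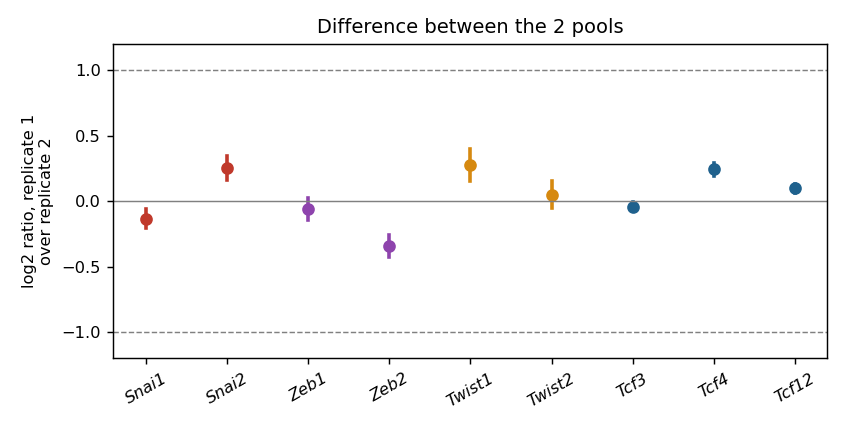
Log2 ratio of replicate 1 over replicate 2 for the 9 genes that averaged 50 counts or more, as points with the 95% interval of counting error, coloured by family. Dashed lines mark a 2-fold difference. The points lie between -0.34 (Zeb2) and 0.28 (Twist1), inside the dashed lines.

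Markers of other cell types also differed between the pools. The 3 heart markers were each more than 2-fold lower in replicate 1, with a summed level of 5.62 TPM in replicate 1 and 24.4 in replicate 2, and all 4 neural tube progenitor markers were lower in replicate 1 relative to the median gene, with 197 and 264 TPM. The 4 macrophage markers were higher in replicate 1, with 30.8 and 24.8 TPM. The mesenchyme markers, Twist1 among them, had a median log2 ratio of -0.03, with 3 of 7 higher in replicate 1. The list of 12 mesenchymal genes, 3 of which it shares with those markers, had a median log2 ratio of 0.19, with 8 of 12 higher in replicate 1 and summed levels of 1539 TPM in replicate 1 and 1399 in replicate 2. The part of these cell types in the ratios of the Snail, Zeb, Twist and E protein genes was not tested.

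The inhibitors of E proteins were more abundant than the E proteins themselves. Id proteins have the helix-loop-helix domain but no DNA-binding region and hold E proteins in inactive pairs. All 4 Id genes were detected, Id3 at 506 ± 7.44 TPM, Id2 at 319 ± 1.58, Id1 at 144 ± 11.3 and Id4 at 29.3 ± 0.651. Their summed level was 986 TPM in replicate 1 and 1012 in replicate 2. The ratio of summed Id over summed E protein TPM was 2.22 in replicate 1 and 2.39 in replicate 2, a mean of 2.31 ± 0.122. These are RNA levels, and protein was not measured.

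The tissue-restricted bHLH factors that pair with E proteins were low. Of 23 listed, 16 were detected, and the median over all 23 was 4.10 TPM. Hand1, a factor of the distal pharyngeal arches and the heart, had 18.1 TPM in replicate 1 and 41.8 in replicate 2. The neuronal factors Neurod1 (21.2 and 24.0 TPM), Nhlh2 (10.6 and 14.3) and Neurog1 (9.58 and 13.2) came next, and Ferd3l (0.10 and 0.43) and Mesp1 (0.10 and 0) were lowest. Twist2, at 45.8 TPM, lay above every gene of that list, and Twist1, at 27.4 TPM, above all but Hand1. Of the 19 that averaged 50 counts or more, 6 were 2-fold apart between the pools. The neurogenic Neurog2, Neurod4 and Atoh1 and also Hand1 were lower in replicate 1, with log2 ratios of -1.15, -1.17, -1.37 and -1.24. The myogenic Myod1 and Myog were higher in replicate 1, with log2 ratios of 1.64 and 2.21 on at most 98 expected counts.

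RNA was detected for every listed corepressor and every listed protein that turns Snail and E proteins over. These 19 genes had a median of 46.1 TPM. Ctbp1, which encodes a corepressor recruited by Zeb proteins, had 294 ± 2.81 TPM, and the histone deacetylase genes Hdac2 and Hdac1 had 270 ± 13.7 and 255 ± 1.14. Ctbp2 followed at 99.8 ± 1.40 TPM. The lowest were Fbxl14, for a ubiquitin ligase subunit that acts on Snail proteins, at 2.94 ± 0.134 TPM, and Cbfa2t3, for a corepressor of the ETO family, at 2.05 ± 0.255. None of the 19 was 2-fold apart between the pools.

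Epithelial genes known as Snail or Zeb targets were present beside the repressors in this mixed tissue, with a lower median than the mesenchymal genes. Of 18 epithelial genes, 16 were detected, and the median over all 18 was 12.7 TPM. Krt18 (84.7 ± 3.08 TPM), Krt8 (81.5 ± 3.02), Epcam (51.6 ± 2.09) and Cldn7 (47.8 ± 0.424) led, and Ovol1 (0.860 ± 0.339) and Ovol2 (0.720 ± 0.170), which encode repressors of mesenchymal programmes, were lowest. Cdh1, the E-cadherin gene and classical target, named after its values were seen, had 18.7 TPM in replicate 1 and 20.4 in replicate 2, on the level of Zeb2. All 12 mesenchymal genes were detected, with a median of 75.8 TPM. Vim had 381 ± 17.0 TPM, Col3a1 334 ± 38.0, Sparc 257 ± 26.6 and Fn1 105 ± 7.57, and Cdh6 (21.5 ± 0.0919) and Tnc (4.19 ± 2.55) were lowest. Tnc, the tenascin C gene, was 2.45-fold higher in replicate 1.

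**Figure D5:**
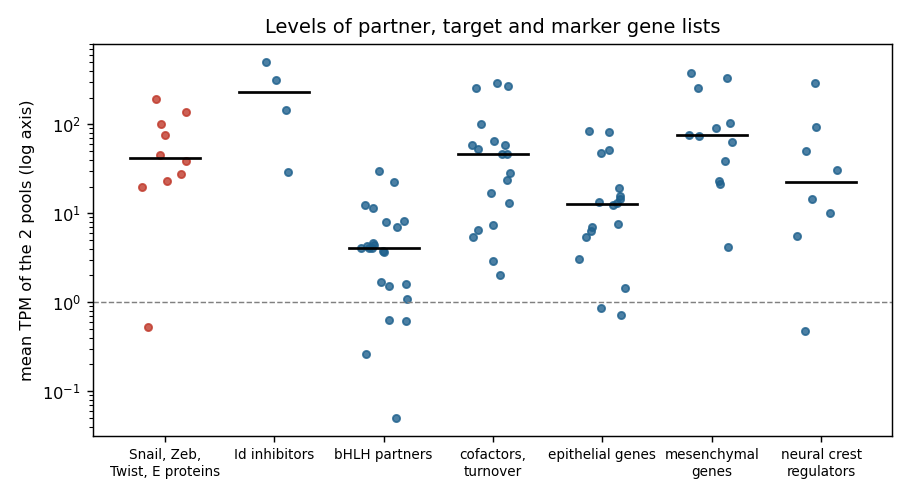
Mean TPM of the 2 pools on a log axis for the Snail, Zeb, Twist and E protein genes (red) and for the genes of 6 related lists (blue), 1 point per gene, with a bar at the median of each list. The dashed line marks 1 TPM. The Id inhibitors have the highest median at 232 TPM and the bHLH partners the lowest at 4.10 TPM.

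Snail, Zeb and Twist genes are known from the formation and migration of the neural crest. Of 8 other regulators of the crest, 7 were detected, and the median over all 8 was 22.5 TPM. Msx1 led at 292 ± 15.1 TPM, followed by Sox9 (92.5 ± 3.18), Sox5 (50.6 ± 2.87) and Ets1 (30.5 ± 2.98). Tfap2a had 5.61 ± 0.163 TPM, and Foxd3, an early marker of premigratory crest, was not detected, at 0.36 TPM in replicate 1 and 0.58 in replicate 2. With 2 libraries of 1 group there is no pattern across conditions, so no gene can be named as most like the Snail, Zeb, Twist or E protein genes.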

How the data were processed

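For both libraries the authors deposited expected counts of genes and transcripts, not normalized, and posterior mean counts. TPM was deposited by the authors over all features of a file, spike-in RNA included. Transcript shares within a gene are the authors' deposited percent values. The bounds of the authors' deposited TPM interval are treated as a score of unstated level. The accompanying notes name the mm10 assembly and the GENCODE M4 annotation, and give neither aligner nor quantifier nor strand setting (not given in the sources used here). Symbols, transcript structures and coordinates were taken by identifier from GENCODE M21 on GRCm38, which is mm10. Of the 81 transcripts, 60 have the same length in both annotations.

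Library factors were computed with edgeR 4.0.16 (TMM) over 40059134 and 39531691 rounded gene counts of replicates 1 and 2, with DESeq2 1.42.0 size factors, spike-in totals and TPM ratios as alternatives. Pool ratios were computed from the deposited expected counts with a prior count of 2. The same formula was tried on simulated data in separate code. Levels of 2 genes were subtracted on a log2(TPM + 0.1) scale. The 95% interval of 1.96 standard errors took its SD from the 200 genes of most similar level. No p-value was computed, since there is 1 group, and the replicates are separate pools per the labels. Other alternatives were posterior mean estimates, rescaled TPM, other thresholds and leaving out each replicate. Named were all 10 genes, their transcripts of at least 5%, genes that overlap them, and of each list the 4 highest genes, the 2 lowest and any that was 2-fold apart. Some transcripts under 5% are named as well, where they bear on the sum of a class. The genes and lists were chosen with earlier results of these data known.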

Additional observations from a re-analysis of the deposited data

How the results depend on the processing

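Under every alternative run, 9 genes were detected, 0 were 2-fold apart between the pools and 5 of 6 shared their leading transcript. Of the 9 neighbouring pairs, 8 were beyond the pooled spread, or 7 with replicate 2 alone. Scaling by spike-in totals moved the all-gene median of the log2 pool ratio (replicate 1 over replicate 2) to 0.21, from which Zeb2 (-0.13), Snai1 (0.08), Zeb1 (0.16) and Tcf3 (0.17) lay below and Twist2 (0.27), Tcf12 (0.31), Tcf4 (0.46), Snai2 (0.47) and Twist1 (0.49) above. It adds the same amount to every ratio, so Snai1, Zeb1 and Tcf3 turned positive with the median. Shares by expected counts instead of TPM put Zeb2 (50.6%) before Zeb1 (49.4%). The posterior mean estimate moved the internal start of Tcf12 to 52.3%. No paired analysis was possible because the series holds 1 group. With 2 pools the SDs are imprecise, and transcript shares rest on estimates over models that share most of their sequence.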
